A study of Mus musculus with 10 samples.

Results

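Mouse livers on a normal diet and on a Western diet were compared for the effect of carbon tetrachloride (CCl4) that they share. Messenger RNA was compared between 4 CCl4 livers and 4 oil livers, paired by diet and duration into 4 pairs, which took 8 of the 10 libraries of the series. The CCl4 groups had normal diet with CCl4 for 12 or 24 weeks, or Western diet with CCl4 for 12 or 24 weeks. Each was set against oil, the vehicle, on the same diet for the same time. Every liver library was 1 pool of 4 mice, and no condition had a second pool, so p-values measure the spread of the CCl4 change between pairs that differ in diet and duration, not between animals. The other 2 libraries, tumours of single mice on Western diet with CCl4 for 24 weeks, entered no main test. Not given in the sources used here were strain, sex, age and the dose and route of CCl4.

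CCl4 is a solvent that hepatocytes around the central vein turn into a radical through the cytochrome P450 enzyme Cyp2e1, which kills those cells. Repeated dosing brings cycles of cell death, regrowth of hepatocytes, recruitment of macrophages and activation of stellate cells, the cells that lay down scar collagen. A Western diet, rich in fat and sugar, loads hepatocytes with lipid.

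The liver libraries held 24082712 to 30137802 reads. The deposited value is a normalised signal, whole reads times 1 constant per library, and its sum was 847190 to 980592 in CCl4 livers and 1007192 to 1108078 in oil livers. A gene was tested where its value reached 1 in at least 2 of the 10 libraries, which kept 12648 of 24062 genes. Cyp2e1 itself read 6858, 4867, 5042 and 4067 in CCl4 livers, against 6614, 5765, 5158 and 5680.3 in oil livers. Here and below the 4 values of a group stand in the order normal diet at 12 and 24 weeks, then Western diet at 12 and 24 weeks. The ranges of Cyp2e1 overlapped and it did not pass the test (limma adjusted p = 0.456). The hepatocyte gene Alb, which encodes albumin, read 68362, 58739, 84121 and 54802 in CCl4 livers, against 114851, 105693, 101592 and 85283 in oil livers. Albumin RNA was thus abundant in every pool. The female-specific transcript Xist had 6 reads over the 8 libraries and the Y-linked gene Ddx3y read 58.0 to 80.1 in each.

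Across the 4 pairs, genes of sterol synthesis and male-biased hepatocyte genes fell, and genes of lipid handling, of scavenging macrophages and of the collagen matrix rose. A change is the difference CCl4 minus oil within a pair on the log2(value + 1) scale, which understates changes of low genes. The mean over 4 pairs is given with the standard error of the limma fit. At an adjusted p under 0.05 (limma, Benjamini-Hochberg over 12648 genes), 3279 genes or 25.9% differed, 2008 or 15.9% higher and 1271 or 10% lower in CCl4 livers. Of the 2008 higher genes, 1958 were higher in all 4 pairs and 50 in 3. Of the 1271 lower genes, 1252 were lower in all 4 pairs and 19 in 3. The count depended on single pairs. It was 1527 without the normal-diet pair of 12 weeks, 1824 without the normal-diet pair of 24 weeks, 3623 without the Western-diet pair of 12 weeks and 1463 without the Western-diet pair of 24 weeks. In that order, rises numbered 1035, 1131, 2178 and 1041 and falls 492, 693, 1445 and 422. A fit without a pair has fewer residual degrees of freedom, so such counts of the lists below stand beside these. Under quantile normalization the full count was 1427 higher and 1194 lower. It was 3421 higher and 493 lower when values were scaled to each library's total reads. That scaling was chosen after seeing the data and moved the median change of all tested genes to 0.18 from -0.01.

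One sign in all 4 pairs, at any size, was shown by 6062 genes or 47.9%, of which 3061 (24.2%) were higher and 3001 (23.7%) lower in CCl4 livers. A change of at least 2-fold in each of the 4 pairs was far rarer, with 178 genes or 1.41% of those tested, 127 (1.0%) higher and 51 (0.403%) lower. All 178 passed the test, which uses the same 4 changes and so is no separate support. Without the Western-diet pair of 12 weeks, 438 genes changed at least 2-fold in each of the other 3 pairs. Just inside that limit stood Alas1, the first enzyme of heme synthesis, with a smallest change of 1.0, and just outside it the collagen gene Col1a2 with 2.54, 3.64, 0.9971 and 1.86 in the 4 pairs. Among the lower genes C8b, a complement factor, stood just inside with a smallest change of -1.003 and Cyp2d9 just outside with -0.97. The values of CCl4 and oil livers did not overlap for 3232 genes (25.6% of those tested), 1725 (13.6%) with every CCl4 liver above every oil liver and 1507 (11.9%) with every one below. Of the 178 genes, 119 of the 127 higher and 43 of the 51 lower ones had groups that did not overlap. These counts describe genes picked by the same values.

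Among genes whose mean level reached the median over all tested genes, 15 rises and 15 falls were picked by the largest smallest-pair change. Genes below that level, such as Ly6d and Hsd3b5, could not enter however large their change. Lcn2, a lipocalin that withholds iron from bacteria and is made by injured epithelium, led these rises. It read 69.6, 126, 35.6 and 168 in CCl4 livers, against 4.13, 12.6, 3.97 and 13.6 in oil livers. Every CCl4 pool stood above every oil pool, and both groups were higher at 24 weeks than at 12 on each diet. The changes were 3.78, 3.22, 2.88 and 3.53, with a mean rise of 3.35 ± 0.15 (limma adjusted p = 0.000110). Serpina1e, a gene of the alpha-1-antitrypsin family, led these falls, with 567, 109, 262 and 58.9 in CCl4 livers, against 11691, 12653, 2821 and 2427 in oil livers. The groups did not overlap, although the oil pools on Western diet were far below those on normal diet. It fell by 4.99 ± 0.46 (limma adjusted p = 0.00101), and the family's near-identical sequences leave uncertain which member the reads came from. The 30 genes held 7 of cholesterol synthesis, 4 of lipid droplets and uptake and 3 of recruited macrophages, which are described with their groups. Among the 30, 1810055G02Rik is given by its symbol only and rose by 1.70 ± 0.14.

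**Figure D1:**
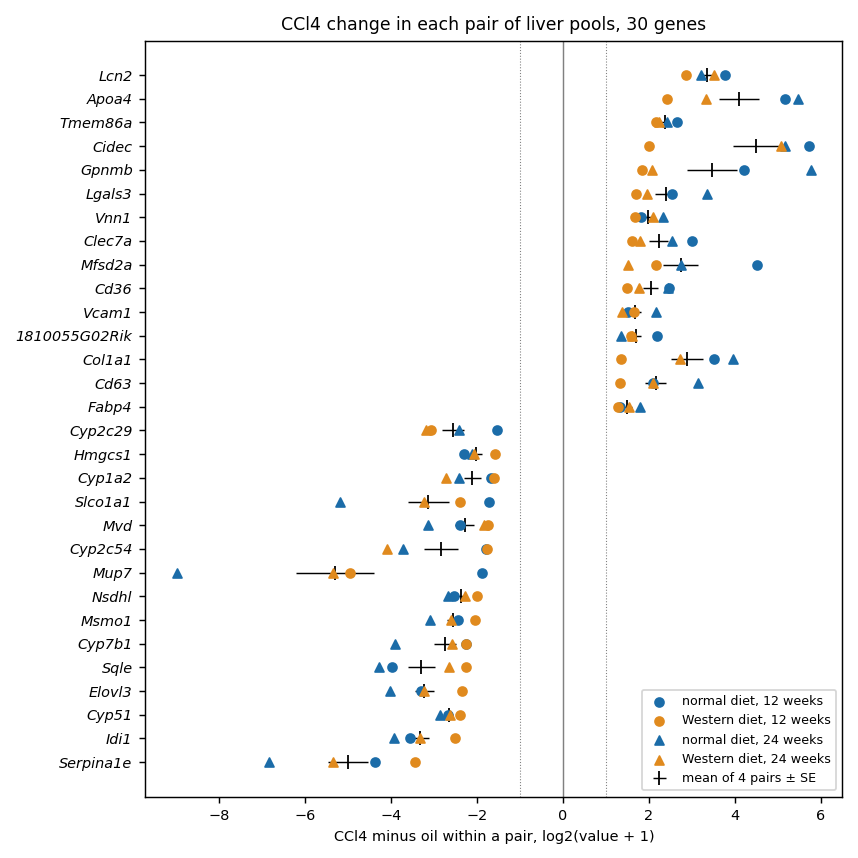
Difference CCl4 minus oil on the log2(value + 1) scale (x axis) for 30 genes (y axis), with 1 marker per pair and the mean of 4 pairs with its standard error as a black bar. All markers lie beyond the dotted lines at 1 and -1, and the Western-diet pair of 12 weeks (orange circles) lies nearest to 0 for many of the genes, as for Cidec and Gpnmb.

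Cholesterol synthesis fell in every pair. Hepatocytes build cholesterol from acetyl-CoA through mevalonate, isoprene units, squalene and lanosterol, and the factor SREBP2, made from Srebf2, switches these genes on when sterols in the cell are low. Of 26 listed members, all tested, 23 fell, 0 rose and 16 fell at least 2-fold in every pair. The median change of the list was -1.46, beside -0.01 for all tested genes. The count of 23 was the same whichever pair was left out and under every other scaling tried. In the order of the pathway, Hmgcs1, which makes HMG-CoA, read 127, 134, 140.5 and 150.0 in CCl4 livers, against 626, 584, 419 and 628 in oil livers. Mvd, the decarboxylase that ends the mevalonate steps, read 6.32, 4.93, 7.72 and 8.96 in CCl4 livers, against 37.1, 51.2, 28.3 and 34.6 in oil livers. Idi1, the isomerase of the isoprene unit, read 5.57, 5.55, 10.1 and 6.38 in CCl4 livers, against 76.1, 97.8, 62.2 and 73.2 in oil livers. In all 3 genes the highest CCl4 pool stayed below the lowest oil pool.

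The later steps fell likewise. Sqle, which oxidises squalene, read 8.11, 6.86, 21.4 and 21.3 in CCl4 livers, against 142, 151, 106 and 139 in oil livers. Cyp51, which takes a methyl group off lanosterol, read 45.4, 35.4, 46.8 and 43.3 in CCl4 livers, against 296, 264, 249.6 and 272 in oil livers. The groups of both genes were far apart, and those of Cyp51 varied little within a group. Msmo1, an oxidase of the following demethylation, fell by 2.54 ± 0.16 and Nsdhl, its partner dehydrogenase, fell by 2.37 ± 0.12. Hmgcs1 fell by 2.01 ± 0.12 and Mvd fell by 2.28 ± 0.22. Idi1 fell by 3.33 ± 0.20, Sqle fell by 3.28 ± 0.32 and Cyp51 fell by 2.64 ± 0.10 (limma adjusted p from 6.66e-05 for Cyp51 to 0.00120 for Sqle). Srebf2, a gene of the list looked up after the values were seen, fell by 0.61 ± 0.08. Ggps1, which makes a prenyl group and not a sterol, was among the 3 members that did not pass, with changes of 0.002067, 0.22, -0.16 and -0.13.

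Start-site windows of 4 of these genes are shown because the genes fell together in all 4 pairs. They are RefSeq windows of GRCm38.p6, from 250 bases before to 50 after the gene start, on the gene's strand. Capitals mark CCAAT or its complement ATTGG, the core letters bound by NF-Y, a factor that works beside SREBP2, and in Hmgcs1 also CACCCCAC, the core of a sterol response element. Hmgcs1 lies at chr13:119690101-119690400 (plus strand), Idi1 at chr13:8885356-8885655 (plus strand), Cyp51 at chr5:4104648-4104947 (minus strand) and Msmo1 at chr8:64733529-64733828 (minus strand).
Hmgcs1: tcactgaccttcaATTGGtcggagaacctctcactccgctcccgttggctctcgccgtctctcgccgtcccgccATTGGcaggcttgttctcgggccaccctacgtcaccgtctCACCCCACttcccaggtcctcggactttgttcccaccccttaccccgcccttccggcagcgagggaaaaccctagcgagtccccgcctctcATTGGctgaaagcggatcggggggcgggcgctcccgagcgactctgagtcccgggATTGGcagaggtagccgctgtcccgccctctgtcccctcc
Idi1: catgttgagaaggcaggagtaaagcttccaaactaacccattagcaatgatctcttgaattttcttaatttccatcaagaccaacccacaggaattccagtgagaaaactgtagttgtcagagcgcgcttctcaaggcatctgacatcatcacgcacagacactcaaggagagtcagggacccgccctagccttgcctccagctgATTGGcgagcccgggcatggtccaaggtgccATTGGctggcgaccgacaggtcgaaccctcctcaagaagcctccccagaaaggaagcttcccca
Cyp51: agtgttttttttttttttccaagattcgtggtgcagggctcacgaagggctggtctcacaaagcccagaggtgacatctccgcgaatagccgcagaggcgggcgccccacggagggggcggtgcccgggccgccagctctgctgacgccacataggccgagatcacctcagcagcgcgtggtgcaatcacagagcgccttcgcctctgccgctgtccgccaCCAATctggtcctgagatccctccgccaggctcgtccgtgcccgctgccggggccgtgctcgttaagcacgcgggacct
Msmo1: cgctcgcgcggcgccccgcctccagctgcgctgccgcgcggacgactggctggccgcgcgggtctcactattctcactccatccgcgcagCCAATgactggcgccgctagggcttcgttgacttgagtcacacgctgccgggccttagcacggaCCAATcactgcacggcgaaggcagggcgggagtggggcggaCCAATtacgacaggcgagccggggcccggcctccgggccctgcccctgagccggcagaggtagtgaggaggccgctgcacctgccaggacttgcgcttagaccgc
Searched on both strands, CCAAT occurred in the windows of 17 of the 18 list genes that the table holds, 17 of their 21 windows or 81.0%, beside 37.4% of all 32851 windows. CACCCCAC, or GTGGGGTG on the other strand, occurred in 2 of the 18, Acat2 and Hmgcs1. That was 2 of the 21 windows or 9.52%, beside 2.87% of all windows. A match describes letters in the window, not a bound site.

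In the bile acid list the sterol exporters were the 2 members that rose. Abcg5 and Abcg8 encode the partners of the pump that moves sterols into bile. Abcg5 read 211, 203, 172 and 142 in CCl4 livers, against 86.7, 72.3, 60.2 and 66.1 in oil livers. Abcg8 read 231, 218, 171 and 150.0 in CCl4 livers, against 137, 74.1, 81.7 and 81.9 in oil livers. Neither gene's groups overlapped, and the rises were 1.33 ± 0.10 for Abcg5 and 1.06 ± 0.13 for Abcg8 (limma adjusted p = 0.000531 and 0.00244). Tmem86a, an enzyme that cleaves lysoplasmalogen lipids, read 42.8, 45.6, 60.9 and 54.2 in CCl4 livers, against 5.99, 7.64, 12.8 and 10.7 in oil livers. Its changes were close to each other in all 4 pairs, at 2.65, 2.43, 2.17 and 2.24.

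Lipid droplet and lipid uptake genes rose on both diets. Of 22 tested members, 18 rose and 0 fell, with 6 up at least 2-fold in every pair and a median change of 0.98. With the Western-diet pair of 12 weeks left out 18 rose, and with any of the other pairs left out 12. Cd36, which carries fatty acids into cells, read 281, 369.7, 205 and 291 in CCl4 livers, against 49.5, 66.7, 71.6 and 84.9 in oil livers, and rose by 2.05 ± 0.17 (limma adjusted p = 0.000823). The groups were apart, with the lowest CCl4 pool on Western diet at 12 weeks. Apoa4, an apolipoprotein of triglyceride-rich particles, read 3307, 5345, 2221 and 3512 in CCl4 livers, against 91.2, 119, 414 and 349 in oil livers. Cidec, which fuses lipid droplets, read 154, 206, 13.1 and 95.3 in CCl4 livers, against 1.91, 4.76, 2.52 and 1.85 in oil livers. The groups of both genes were apart, but on Western diet at 12 weeks CCl4 livers had 13.1 of Cidec, the lowest of the 4. Outside the list, Mfsd2a, a carrier of lysophosphatidylcholine, read 220.2, 239.9, 196 and 196 in CCl4 livers, against 8.65, 34.6, 42.7 and 67.6 in oil livers, and rose by 2.74 ± 0.41. Fabp4, a fatty acid binding protein, rose by 1.49 ± 0.12 with groups apart. Plin4, a droplet coat protein, rose by 2.35 ± 0.31 with groups that overlapped.

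The adipose tissue markers Adipoq, Plin1 and Lep were at or near 0, at most 0.0796 in any liver pool. Of 3 tested members of the pancreas and adipose tissue list, 0 rose and 1 fell, with a median change of -0.60. The list mixes both tissues, so its count and median are not read as a statement on adipose tissue. Cfd, another adipose marker, was tested and did not pass, although its mean change of 1.99 was the highest of the list. It read 45.6, 5.40, 0 and 0.661 in CCl4 livers, against 0.177, 0.640, 0.0427 and 0 in oil livers, so that 1 pool, CCl4 on normal diet at 12 weeks, stood apart. Of the droplet and uptake list, 12 members rose without that pair. Whether Cfd-expressing cells contributed to the lipid genes of that pool was not tested.

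Fatty acid use and synthesis moved in part. Of 30 tested members of fatty acid oxidation and ketone synthesis, 7 rose and 1, Cyp4a12a, fell, and the median change was 0.24. The 7 were 21 under total-read scaling and 16 under quantile normalization, and 4 without the normal-diet pair of 12 weeks. Of all 12648 tested genes 2008 or 15.9% rose. That count was 3421 under total-read scaling, 1427 under quantile normalization and 1035 without that pair. Vnn1, a pantetheinase that recycles vitamin B5, read 131, 146, 56.5 and 109.6 in CCl4 livers, against 36.4, 28.3, 17.05 and 24.6 in oil livers and rose by 1.98 ± 0.12. Ucp2, an uncoupling protein of mitochondria, rose by 1.38 ± 0.13, and Cpt1a, which admits fatty acids to mitochondria, by 0.92 ± 0.14. Of 20 tested members of fatty acid synthesis, 10 rose and 2, Acly and Mlxipl, fell, or 6 and 0 without the normal-diet pair of 12 weeks and 6 and 1 without that of 24 weeks. Scd1, the main desaturase of the liver, read 47692, 52024, 21091 and 31163 in CCl4 livers, against 12830.3, 12736, 13157 and 10184 in oil livers, with groups apart. It rose by 1.55 ± 0.30, the desaturase Scd2 by 1.89 ± 0.17 and Fads2, which desaturates polyunsaturated chains, by 1.42 ± 0.13.

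**Figure D2:**
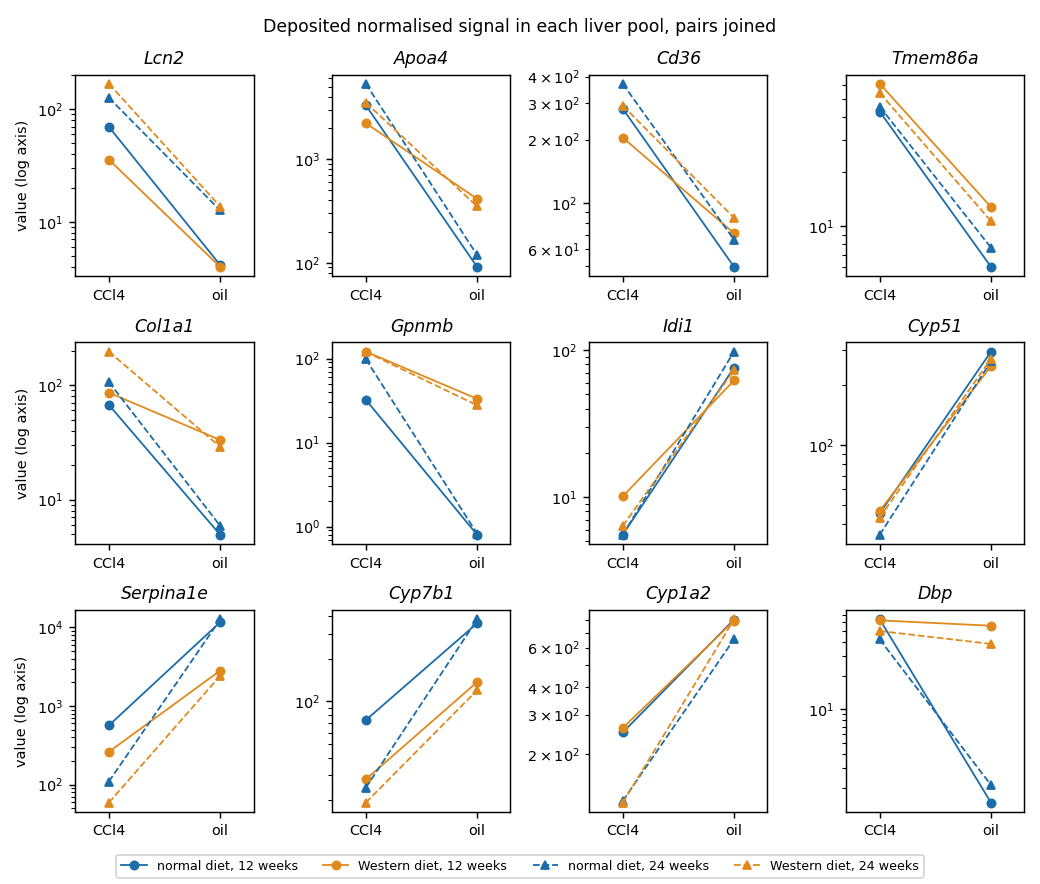
Deposited normalised signal (y axis, log scale) of 12 genes in the CCl4 pool (left) and the oil pool (right) of each pair, joined by a line. Blue marks normal diet, orange Western diet, circles with solid lines 12 weeks and triangles with dashed lines 24 weeks. Lines rise to the CCl4 side for the first 6 genes and fall for the next 5, and those of Dbp rise on normal diet.

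Macrophage genes rose in every pair. Of 20 markers of recruited and lipid-associated macrophages, cells that enter injured liver from blood and clear debris and lipid, 18 rose and 0 fell, and 10 rose at least 2-fold in every pair. The median change was 1.58, and 17 or 18 rose whichever pair was left out. In a tissue extract, more cells of a type and more RNA per cell cannot be told apart. Gpnmb, a glycoprotein of lipid-laden macrophages, read 32.3, 98.4, 121 and 120.3 in CCl4 livers, against 0.799, 0.823, 33.2 and 27.8 in oil livers. Its groups overlapped, since the CCl4 pool on normal diet at 12 weeks was just below the Western-diet oil pool of 12 weeks. Lgals3, which encodes galectin-3, read 24.7, 64.8, 41.2 and 59.2 in CCl4 livers, against 3.37, 5.40, 11.9 and 14.5 in oil livers. Clec7a, a receptor for fungal glucan that is not on the list, read 24.8, 39.8, 57.6 and 51.05 in CCl4 livers, against 2.22, 5.99, 18.3 and 13.98 in oil livers. For these last 2 genes each CCl4 pool was above every oil pool. Rises were 3.47 ± 0.58 for Gpnmb, 2.39 ± 0.25 for Lgals3, 2.24 ± 0.22 for Clec7a, 3.31 ± 0.42 for the macrophage elastase Mmp12 and 2.17 ± 0.25 for Cd63, a membrane protein of endosomes (limma adjusted p from 0.00127 to 0.00640). Fabp5, a fatty acid binding protein, did not pass and changed by -1.12, -1.48, 0.04 and 0.74. Ly6c2, a marker of blood monocytes, did not pass either, with 0.883 to 1.47 in CCl4 livers and 0.222 to 0.869 in oil livers. Its CCl4 pools were all above its oil pools, at a low level where the scale understates changes.

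Class II antigen presentation rose in all 9 tested members, 5 of them at least 2-fold in every pair, with a median change of 1.45. All 9 rose whichever pair was left out and under each scaling tried. H2-Aa, a chain of the class II molecule, read 87.8, 185, 117 and 201 in CCl4 livers, against 33.7, 39.6, 52.1 and 70.4 in oil livers. Its chaperone Cd74 read 225, 453, 277 and 487 in CCl4 livers, against 89.2, 105, 136 and 189 in oil livers. In both genes every CCl4 pool was above every oil pool, and the Western-diet oil pools were above those on normal diet. The rises were 1.55 ± 0.16 for H2-Aa, 1.45 ± 0.16 for Cd74 and 1.53 ± 0.13 for Ctss, a protease that trims Cd74.

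Markers of Kupffer cells, the resident macrophages, did not move as a group. Of 15 tested members, 4 rose and 1, the complement factor C6, fell, or 8 and 1 without the Western-diet pair of 24 weeks, and 9 rose under total-read scaling. The median change was 0.36. Cd5l, a secreted protein of tissue macrophages, read 198, 272, 382 and 209 in CCl4 livers, against 68.5, 101, 135 and 169 in oil livers, and rose by 1.18 ± 0.20. Emr1, the gene of the macrophage marker F4/80, rose by 0.9958 ± 0.15 and Csf1r, the macrophage growth factor receptor, by 0.89 ± 0.14, with overlapping groups. Marco, a scavenger receptor, did not pass, with 18.2, 6.47, 37.4 and 1.61 in CCl4 livers, against 10.8, 34.6, 22.7 and 32.4 in oil livers. It was higher in CCl4 pools at 12 weeks and lower at 24 weeks on both diets. Timd4, a receptor for dying cells, changed by -0.02, -1.36, 0.57 and -1.64 and did not pass.

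Few markers of other blood cells were tested, and most did not pass. Of all tested genes 25.9% passed, so this is not particular to blood cells. Of 9 tested T and NK cell markers Il7r rose, of 6 B and plasma cell markers Cd22 rose and 1 fell, of 3 neutrophil markers Csf3r rose, and of 4 red cell precursor markers Alas2 fell. Another 5, 2, 11 and 4 listed members of these groups were not tested. Of these, Trbc1 and Ly6g had no row under that symbol, and the haemoglobin genes Hba-a1 and Hbb-bs were listed at 0 in all 8 livers, from which nothing is read about red cells.

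Matrix genes rose in every pair but by unequal amounts. Of 29 tested collagens and collagen-processing genes, 23 rose and 0 fell, 4 of them at least 2-fold in every pair, and the median change was 1.03. Of 30 other matrix and matrix turnover genes, 28 rose and 0 fell, with a median change of 1.28. Median changes of the collagen list at 12 and 24 weeks were 1.16 and 1.65 under normal diet and 0.38 and 1.23 under Western diet. Col1a1, a chain of type I collagen, read 67.2, 106, 85.95 and 196 in CCl4 livers, against 4.92, 5.90, 33.2 and 28.8 in oil livers, and rose by 2.89 ± 0.36 (limma adjusted p = 0.00251). Col3a1, the type III chain, read 169, 235, 238 and 372 in CCl4 livers, against 23.5, 24.2, 99.2 and 85.9 in oil livers, and rose by 2.34 ± 0.28. In both genes CCl4 pools were above all oil pools, and oil pools on Western diet were above those on normal diet. Thbs2, a matrix thrombospondin, rose by 1.88 ± 0.20 and Nid1, a basement membrane protein, by 1.70 ± 0.27. Fn1, which encodes fibronectin and is also made by hepatocytes, did not pass and changed by -0.19, 0.15, -0.31 and -0.31.

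Stellate cell and myofibroblast markers rose in 14 of 19 tested members, and 0 fell. Without the Western-diet pair of 24 weeks 8 rose. Vim, the filament protein of mesenchymal cells, read 47.9, 84.2, 65.3 and 93.6 in CCl4 livers, against 17.97, 23.4, 30.2 and 34.00 in oil livers, and was the 1 member up at least 2-fold in every pair. Pdgfrb, the growth factor receptor of stellate cells, rose by 1.26 ± 0.22 and Acta2, the actin of contractile myofibroblasts, by 1.02 ± 0.22. The change of Acta2 was 0.14 on Western diet at 12 weeks and 1.20 to 1.45 in the other pairs. Outside the list, Vcam1, an adhesion molecule of activated vessels and stellate cells, read 31.5, 72.6, 65.2 and 73.6 in CCl4 livers, against 10.2, 15.4, 19.8 and 27.7 in oil livers, and rose by 1.69 ± 0.13.

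**Figure D3:**
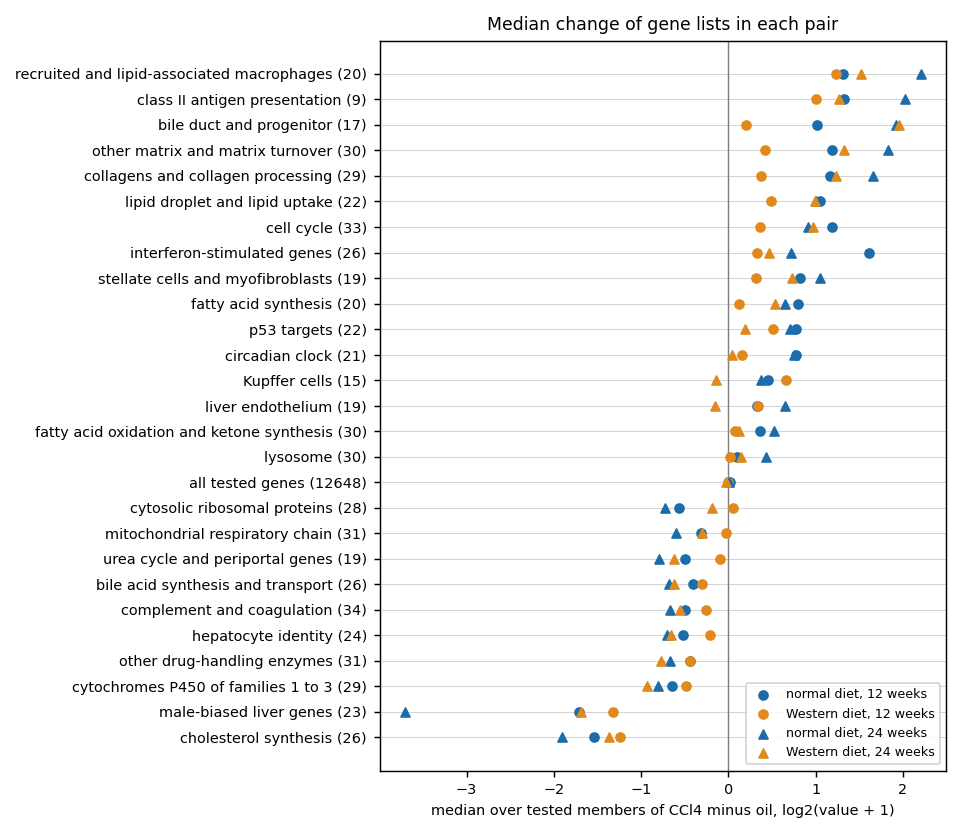
Median change CCl4 minus oil, log2(value + 1), over the tested members of 27 gene lists including all tested genes (y axis, number tested in brackets), with 1 marker per pair. Cholesterol synthesis lies between -1.90 and -1.24 in all pairs, and recruited macrophage markers between 1.23 and 2.20, while Kupffer cell and endothelial markers fall on both sides of 0.

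Drug-metabolising enzymes of hepatocytes fell. Of 29 tested cytochromes P450 of families 1 to 3, 16 fell and 3 rose (Cyp2a4, Cyp2c38 and Cyp2c39), with 4 down at least 2-fold in every pair and a median change of -0.77. The number that fell was 15 to 18 whichever pair was left out, and 1 rose without either normal-diet pair. Cyp1a2, which metabolises caffeine, read 249.8, 123, 262 and 121 in CCl4 livers, against 803, 655, 792 and 803 in oil livers, and fell by 2.10 ± 0.19. Every CCl4 pool was below every oil pool, and the CCl4 pools were lower at 24 weeks than at 12 on both diets. Cyp2c29 read 744, 423, 254 and 179.7 in CCl4 livers, against 2132, 2259, 2143 and 1628 in oil livers, and fell by 2.54 ± 0.25. Cyp2c54 fell by 2.83 ± 0.39, and Cyp2a4, a steroid hydroxylase more abundant in female liver, rose by 3.81 ± 0.37. Cyp2c and Cyp2a genes are close paralogs, so the member behind the reads is uncertain. Of 31 other drug-handling enzymes, 21 fell and 3 rose (Fmo2, Fmo5 and Por), or 12 and 3 without the Western-diet pair of 24 weeks. Ces2a, a carboxylesterase, read 203, 128, 232 and 105 in CCl4 livers, against 689.8, 656, 606 and 456 in oil livers, and fell by 1.90 ± 0.15.

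Bile acid genes fell in part. Of 26 tested members, 15 fell, and the 2 that rose were Abcg5 and Abcg8. Without the Western-diet pair of 24 weeks 8 fell. Cyp7b1, which hydroxylates oxysterols on the way to bile acids, read 73.8, 24.6, 28.2 and 19.3 in CCl4 livers, against 356, 379, 137 and 119.9 in oil livers, and fell by 2.74 ± 0.25. Slco1a1, an uptake carrier of organic anions, read 180.2, 11.6, 39.3 and 7.53 in CCl4 livers, against 593, 455, 209 and 78.4 in oil livers. The groups of Slco1a1 overlapped, since the CCl4 pool on normal diet at 12 weeks was above the Western-diet oil pool of 24 weeks. Slc10a1, the main bile salt importer, fell by 0.90 ± 0.20.

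Of 24 hepatocyte identity genes 13 fell and 0 rose, with a median change of -0.53. The number that fell was 4 without the normal-diet pair of 12 weeks and 6 without either pair of 24 weeks. Under quantile normalization 7 fell and 1 rose, and the median was -0.10. Fga, a fibrinogen chain, read 3180.4, 2827, 3562 and 2999 in CCl4 livers, against 7337, 6253, 5367 and 5269.7 in oil livers, and fell by 0.94 ± 0.17. Alb did not pass (limma adjusted p = 0.258), although its groups did not overlap. Of 34 complement and coagulation factors 17 fell and 6 rose, or 11 and 6 without the normal-diet pair of 12 weeks and 11 and 5 without the Western-diet pair of 24 weeks, and 10 fell under quantile normalization. C8b, a chain of the membrane attack complex, read 123, 43.2, 164 and 72.4 in CCl4 livers, against 485, 512, 329 and 290.3 in oil livers, with groups apart. Of 19 urea cycle and periportal genes 9 fell, or 5 without either normal-diet pair, and of 22 pericentral genes 7 fell and 3 rose. Etnppl, a phospholyase of periportal cells, fell by 1.81 ± 0.24 and Hal, the first enzyme of histidine breakdown, by 1.40 ± 0.21.

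Male-biased liver genes fell on both diets. In mice, pulsed growth hormone keeps these genes high in male hepatocytes, and continuous hormone keeps another set high in females. Of 23 tested male-biased genes 21 fell and 0 rose, 13 of them at least 2-fold in every pair, with a median change of -2.23. Between 19 and 22 fell whichever pair was left out. Elovl3, a fatty acid elongase, read 86.2, 61.1, 23.5 and 11.1 in CCl4 livers, against 850.0, 1009.8, 123 and 113 in oil livers, and fell by 3.22 ± 0.23 (limma adjusted p = 0.000515). Hsd3b5, a steroid dehydrogenase, read 26.2, 0.0297, 2.92 and 0.230 in CCl4 livers, against 290.0, 207, 30.8 and 8.16 in oil livers. Elovl3 levels of the CCl4 pools were all below the oil pools, whereas the groups of Hsd3b5 overlapped. Mup7, of the major urinary proteins whose members are nearly identical, read 531, 3.44, 18.8 and 2.30 in CCl4 livers, against 1962, 2233, 609 and 134 in oil livers. The groups of Mup7 overlapped too, with CCl4 on normal diet at 12 weeks above the Western-diet oil pool of 24 weeks. Of 7 tested female-biased genes 5 rose and 0 fell. Cyp17a1, which makes steroid precursors, read 20.6, 40.4, 14.2 and 44.6 in CCl4 livers, against 7.36, 13.9, 2.91 and 6.04 in oil livers, and rose by 1.87 ± 0.21.

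Genes of division and damage rose in CCl4 livers. Of 33 tested cell cycle genes 27 rose and 0 fell, 0 of them at least 2-fold in every pair, and the median change was 0.94. The count was 12 without the normal-diet pair of 12 weeks, 15 without the normal-diet pair of 24 weeks, 28 without the Western-diet pair of 12 weeks and 12 without the Western-diet pair of 24 weeks, and 16 under quantile normalization. The median change of the cell cycle list was 0.82 to 1.135 with 1 pair left out and 0.64 under quantile normalization. Mki67, a protein of dividing nuclei, read 8.27, 10.7, 5.38 and 9.91 in CCl4 livers, against 1.06, 3.29, 2.82 and 1.93 in oil livers, and rose by 1.56 ± 0.23. The groups were apart, with the smallest change on Western diet at 12 weeks. Of 22 p53 targets 11 rose and 1, Trp53inp1, fell, or 5 and 0 without the normal-diet pair of 12 weeks, and 18 rose under total-read scaling. Phlda3, an inhibitor of the kinase Akt, read 5.77, 6.47, 12.4 and 9.54 in CCl4 livers, against 1.69, 1.10, 4.44 and 3.41 in oil livers, and rose by 1.43 ± 0.14. Cdkn1a, the cell cycle inhibitor p21, rose by 1.10 ± 0.13.

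Interferon-stimulated genes rose in 15 of 26 tested members, and 0 fell. The median changes at 12 and 24 weeks were 1.61 and 0.72 under normal diet, and 0.32 and 0.47 under Western diet. Oas3, a sensor of double-stranded RNA, was the 1 member up at least 2-fold in every pair, with 7.80, 5.91, 6.03 and 6.64 in CCl4 livers, against 0.976, 0.915, 1.92 and 1.89 in oil livers. Its window, chr5:120777610-120777909 (minus strand), is shown for the letters of the interferon-stimulated response element, GAAA, any 2 bases and GAAA again, in capitals.
Oas3: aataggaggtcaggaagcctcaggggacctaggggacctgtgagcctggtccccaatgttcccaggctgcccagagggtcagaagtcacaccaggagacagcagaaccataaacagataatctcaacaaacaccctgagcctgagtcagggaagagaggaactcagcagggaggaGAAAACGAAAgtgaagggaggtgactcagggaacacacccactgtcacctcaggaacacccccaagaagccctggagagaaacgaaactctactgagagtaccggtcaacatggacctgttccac
Searched on both strands, the element occurred in windows of 11 of the 19 list genes in the table. That was 11 of their 22 windows or 50%, beside 3.44% of all windows. Of 23 tested chemokines and cytokines 13 rose and 3 fell (Ccl9, Cxcl12 and Cxcl13), or 6 and 0 without either normal-diet pair and 8 and 1 without the Western-diet pair of 24 weeks, and 6 and 1 under quantile normalization. Ccl6, a chemokine of macrophages, rose by 1.82 ± 0.19.

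Counts of stress and duct markers were lower without most single pairs, as were those of all tested genes. Of 31 NRF2 targets and glutathione genes 12 rose and 7 fell, or 6 and 2 without the Western-diet pair of 24 weeks and 7 and 3 without the normal-diet pair of 12 weeks, and 3 fell under quantile normalization and total-read scaling. Cbr3, a carbonyl reductase, read 8.75, 6.74, 9.26 and 11.7 in CCl4 livers, against 1.06, 1.33, 1.11 and 1.56 in oil livers. Gstp1, a glutathione transferase, read 304, 251, 362 and 206 in CCl4 livers, against 1151, 1252, 729.7 and 423 in oil livers. Both genes had groups that were apart. Cbr3 rose by 2.14 ± 0.15 and Gstp1 fell by 1.57 ± 0.22. Of 17 bile duct and progenitor markers 13 rose, or 5 without the normal-diet pair of 24 weeks, 6 without the Western-diet pair of 24 weeks, 7 without the normal-diet pair of 12 weeks and 8 under quantile normalization. Their median change was 1.33, and 1.07, 0.99 and 1.37 without these pairs in that order. Spp1, which encodes osteopontin, read 137, 325, 121 and 524 in CCl4 livers, against 49.9, 37.3, 60.8 and 68.9 in oil livers, and rose by 2.10 ± 0.34. Anxa2, a membrane-binding annexin, read 101, 159.8, 43.3 and 131 in CCl4 livers, against 11.2, 13.5, 17.2 and 23.1 in oil livers, and rose by 2.57 ± 0.31. Ly6d, a surface protein on a list of fetal liver and tumour markers, read 75.9, 93.5, 51.3 and 106 in CCl4 livers, against 1.06, 1.56, 3.29 and 4.75 in oil livers. Its rise of 4.56 ± 0.26 (limma adjusted p = 0.000324) was in every pair at least 3.61.

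The calls on ribosomal and mitochondrial genes depended on the scaling. Of 28 cytosolic ribosomal protein genes 2, Rpl27 and Rps15, fell and of 31 respiratory chain genes 7 fell, with medians of -0.36 and -0.31. In limma 0 members of either list passed under quantile normalization or total-read scaling, and 0 with any 1 pair left out other than the Western-diet pair of 12 weeks. Without that pair 25 ribosomal and 18 respiratory chain genes fell.

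The 4 pairs gave changes of unequal size. At least 2-fold rises at 12 and 24 weeks numbered 830 and 1253 under normal diet and 304 and 771 under Western diet, and falls 208 and 416 under normal diet and 103 and 210 under Western diet. Across the 12648 genes the changes of 2 pairs correlated with a Pearson r of 0.58 to 0.79. The pairs share no library, but genes are not independent and no p is given. Of the 178 genes changed at least 2-fold in every pair, 108 had their smallest change on Western diet at 12 weeks and 121 their largest on normal diet at 24 weeks. Of 607 genes up at least 2-fold in both normal-diet pairs, 570 (93.9%) were higher in both Western-diet pairs and 4 lower in both, beside 33.2% of all tested genes higher in both. At least 2-fold up in both Western-diet pairs were 127 of the 607 (20.9%), beside 1.31% of all tested genes. Of 165 genes up at least 2-fold in both Western-diet pairs, the 127 were 77.0%, beside 4.8% of all tested genes up at least 2-fold in both normal-diet pairs. Of 155 genes down at least 2-fold in both normal-diet pairs, 139 (89.7%) were lower in both Western-diet pairs, beside 37.1% of all tested genes. At least 2-fold falls in all pairs numbered 51, which is 32.9% of the 155 and 71.8% of the 71 on Western diet. Among all tested genes, 0.56% fell at least 2-fold in both Western-diet pairs and 1.2% in both normal-diet pairs.

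Some changes were nearly equal in the 4 pairs. A ranking by the SD of the 4 changes over their mean was made after the values were seen, over genes changed at least 2-fold in every pair and with a mean level that reached the same median. Within that limit the first were Cyp51, Tmem86a, Apoc2 and Prlr. Apoc2, the cofactor of lipoprotein lipase, rose by 1.31, 1.08, 1.28 and 1.33 in the 4 pairs. Prlr, the prolactin receptor, changed by -1.01, -1.11, -1.30 and -1.25. Acss2, which makes acetyl-CoA from acetate, also ranked high with -1.21, -1.72, -1.62 and -1.58.

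The second question was where the CCl4 change differed between the diets. The change on Western diet minus that on normal diet passed an adjusted p of 0.05 for 15 genes, 0.119% of those tested (limma, 2 residual degrees of freedom). The count was 8 to 69 with 1 pair left out, lowest without the Western-diet pair of 12 weeks and highest without the normal-diet pair of 24 weeks, and it was 106 in DESeq2, 11 in edgeR and 0 with no filter on low values. Of these genes, 6 had a positive and 9 a negative difference. Dbp, a clock output factor, read 63.6, 42.2, 62.4 and 50.1 in CCl4 livers, against 1.46, 2.10, 55.9 and 38.4 in oil livers. Only the normal-diet oil pools were low, and the difference of changes was -3.99 ± 0.30 (limma adjusted p = 0.00640). Cyp2b9, a P450 of female liver, read 9.27, 19.1, 12.3 and 8.30 in CCl4 livers, against 0.133, 0.640, 16.5 and 9.49 in oil livers, again with low values in the normal-diet oil pools only. Gstm3, a glutathione transferase, read 455, 501, 289.5 and 407 in CCl4 livers, against 126, 164, 406 and 421 in oil livers, and the normal-diet oil pools were lowest.

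Moxd1, a monooxygenase-like protein of male liver, was at 0 in all CCl4 livers, against 14.4, 30.4, 0 and 0 in oil livers. Tff3, a trefoil peptide, read 1.67, 1.16, 1.54 and 1.98 in CCl4 livers, against 22.3, 36.3, 0.855 and 1.19 in oil livers. In these 2 genes only the normal-diet oil pools were high. Among the livers, Moxd1 reached the filter value only in those pools. At 0 in both Western-diet groups, a fall of Moxd1 could not be measured on that diet. Cidea, a relative of Cidec, instead differed within CCl4 livers, at 16.4, 34.4, 0.154 and 0.919, against 0, 0.0915, 0 and 0 in oil livers. Scara5, a ferritin receptor, changed by -0.44, -0.47, 2.19 and 1.98, below 0 on normal diet and above 0 on Western diet. Sqle and Apoa4 moved one way in all 4 pairs and less on Western diet, with mean changes of -2.45 on Western and -4.12 on normal diet for Sqle, and 2.87 on Western and 5.32 on normal diet for Apoa4. The others that passed were Foxq1, Jun, Cyp2a22, Enho, Sulf2 and Lipg.

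**Figure D4:**
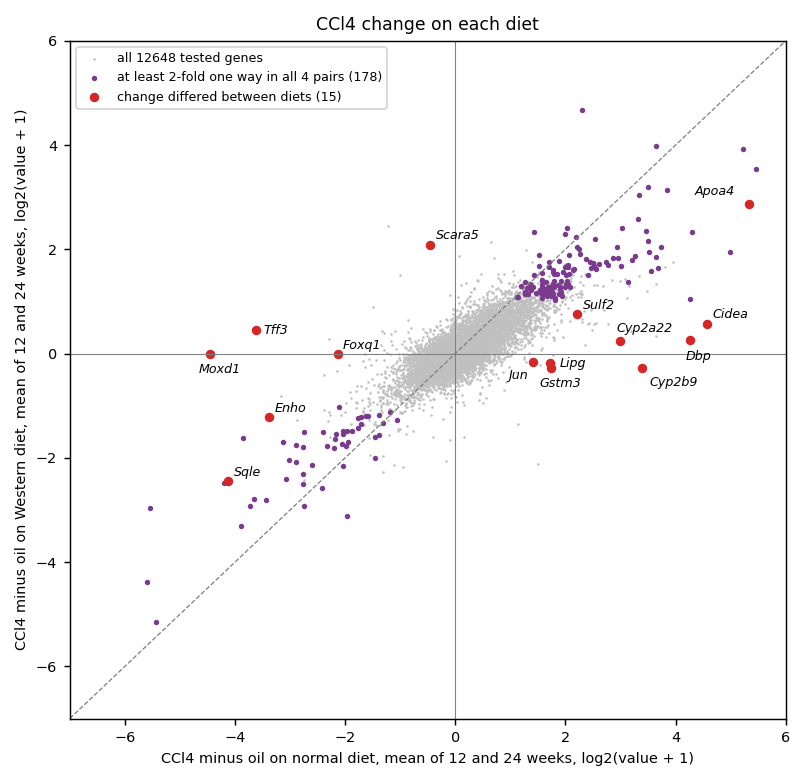
Mean CCl4 change on normal diet (x axis) and on Western diet (y axis), each the mean of 12 and 24 weeks on the log2(value + 1) scale, for 12648 genes in grey. The 178 genes changed at least 2-fold one way in all pairs are purple, the 15 whose change differed between diets red, and the dashed line marks equal change. Purple genes lie in the upper right and lower left, and Dbp, Moxd1 and Cyp2b9 lie near 0 on the Western-diet axis.

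The rises of clock genes rested on normal diet. Of 21 tested members 8 rose and 5 fell, but 1 rose without the normal-diet pair of 12 weeks and 0 without that of 24 weeks, while 5 fell in each case. Dbp itself did not pass over the 4 pairs (limma adjusted p = 0.0551). Per3, a period gene, changed by 3.89, 2.48, 0.55 and 0.30. Arntl, the Bmal1 activator of the clock, read 5.53, 6.12, 8.87 and 7.93 in CCl4 livers, against 33.5, 30.4, 17.3 and 23.6 in oil livers, and fell by 1.72 ± 0.23. All CCl4 pools were below all oil pools for Arntl, and the hour of sampling was not given in the labels.

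For duration, the change at 24 weeks minus that at 12 weeks passed for 0 genes, 0% of those tested, in limma and in edgeR, and for 23 in DESeq2. In limma 860 had an unadjusted p under 0.05. The smallest p belonged to Cyp2c54, whose mean change was -1.76 at 12 weeks and -3.90 at 24 weeks (difference -2.14 ± 0.19, limma adjusted p = 0.162). Spp1 changed by 1.21 at 12 weeks and 3.001 at 24 weeks, and the protease gene Mmp7 by 1.22 at 12 weeks and 3.21 at 24 weeks. Marco changed by 0.70 at 12 weeks and -2.97 at 24 weeks. None of these differences passed the threshold.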

How the data were processed

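Poly(A)-selected RNA of 8 liver pools and 2 tumours was sequenced, 24082712 to 30137802 reads a liver. Per the submitters' processing notes, reads were aligned with STAR to mm10. Not given in the sources used here were the read counter, annotation, strand use and scaling, so overlapping genes and near-identical paralogs may share reads. The deposited values are a normalised signal of 24062 genes by symbol. In every library they were whole multiples of 1 constant (100% of values, within 0.01 read), so read counts were recovered, which served the edgeR and DESeq2 alternatives, and 1 read was worth 0.0287 to 0.0457 of signal in the livers.

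From the signal, log2(value + 1) was fitted with limma 3.58.1 in R 4.3.3, with the pair as a block and CCl4 as a term (3 residual degrees of freedom, variance trend, Benjamini-Hochberg over 12648 genes, threshold 0.05). The difference of the CCl4 effect between diets or durations was an interaction, fitted separately for each with the same pair block (2 residual degrees of freedom). Pairing came from the labels, which give each pair 1 diet and 1 duration. The deviations of paired libraries from their group means correlated at 0.37 and -0.06 on normal diet at 12 and 24 weeks, and at 0.11 and 0.41 on Western diet. Scripts were tested on simulated data.

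Genes named were the 15 rises and 15 falls with the largest smallest-pair change among genes at or above the median level, up to 5 called and 2 uncalled members of each list by size of change, the 8 genes with the smallest p of each difference test, and a few followed genes. Genes named beyond this rule were chosen after their values were seen: Srebf2, Ggps1, Acat2, Alas1, Col1a2 as a threshold case, Cyp2d9, Apoc2, Prlr, Acss2, Jun, Enho, Sulf2, Lipg and the members named to spell out small counts. The comparison, its gene lists and its named genes were chosen with earlier results of these data known. Some genes of the lists are counted but not reported here by name. The tumours entered no main test, but they counted in the filter and in the alternative with all 10 libraries in the fit. Alternatives were another pseudocount, filter, scaling, design or tool (edgeR 4.0.16, DESeq2 1.42.0) and each pair left out.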

Additional observations from a re-analysis of the deposited data

Results flagged for a closer look

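The CCl4 change differed between diets for 15 genes (limma interaction, adjusted p under 0.05), given as the change on Western diet minus that on normal diet on the log2(value + 1) scale. The difference was positive for Moxd1 (4.46), Tff3 (4.07), Scara5 (2.54), Enho (2.15), Foxq1 (2.13) and Sqle (1.67). Moxd1 was undetected in both groups on Western diet, where no fall could be measured. The difference was negative for Cidea (-3.998), Dbp (-3.99), Cyp2b9 (-3.68), Cyp2a22 (-2.75), Apoa4 (-2.45), Gstm3 (-1.998), Lipg (-1.91), Jun (-1.58) and Sulf2 (-1.46).

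In 14 of 268 groups of 4 libraries, 1 for each named gene and treatment, 1 library stood far from the other 3. Chance alone marks about 1 such group in 20, and the 14 are near that rate. The 4 libraries of a group differ in diet and duration, so the rate is only a guide. The pool of normal diet with CCl4 for 12 weeks held 4 of them, with 32.3 of Gpnmb, 31.5 of Vcam1 and 30.6 of Cdkn1a, the lowest of the CCl4 livers, and 186 of Cyp4a12a, a fatty acid hydroxylase, the highest. The Western-diet CCl4 pool of 12 weeks had the lowest Acta2 of the CCl4 livers, at 3.34, and the highest Etnppl, at 144. Among oil livers, the normal-diet pool of 12 weeks had the highest Abcg8, at 137. The normal-diet oil pool of 24 weeks had the lowest Cyp1a2 (655), Fn1 (825) and Sdf2l1 (91.95) and the highest Cidea (0.0915). This Cidea value is near the floor, as 1 read was worth 0.0457 in that pool. The Western-diet oil pool of 24 weeks had the lowest Foxq1 (11.5) and Scd1 (10184), and that of 12 weeks the highest H19 (2.09). What set these values apart was not tested.

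The 2 tumours entered no main test and are set beside the oil livers here as a count only. In both, 2579 of the 12648 tested genes (20.4%) were above every oil liver and 2443 (19.3%) below every oil liver. The oil livers are the ones the CCl4 livers were set against, so the tumours and CCl4 livers share them.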

How the results depend on the processing

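The count of 3279 genes changed by CCl4 over 4 pairs was 2612 to 3914 under another pseudocount, filter, scaling, variance model, design or tool, apart from 824 with all 10 libraries in the fit, and 1463 to 3623 with 1 pair left out. Without the replicate block it was 2989. The 15 genes that differed between diets became 0 with no filter or with all 10 libraries, 6 with no variance trend, 8 under a stricter filter, 9 under quantile normalization and 106 in DESeq2, and 8 to 69 with 1 pair left out. For duration the count of 0 became 23 in DESeq2 and 0 to 1 with 1 pair left out. The 178 genes with one sign and at least 2-fold in every pair became 377 with a pseudocount of 0.1, 657 at 1.5-fold, 147 to 244 under other scalings, and 188 to 438 with 1 pair left out. The pair block is the labels' pairing by diet and duration. Of the 114 named genes that passed, 69 passed in the same direction under every alternative tried and 90 with each pair left out. Reversed signs were limited to named genes that did not pass. Under quantile normalization they were Cyp2e1 (0.33) and Fn1 (0.17). Under total-read scaling, chosen after seeing the data, they were Ggps1 (0.17), Fn1 (0.055), Cyp2e1 (0.044) and Ddx3y (0.021). With 1 pair left out Ggps1 ranged over -0.0973 to 0.0317. The causes were not tested. Depth does not limit genes of high level, where 1 read is at most 0.0457 of signal, while 1 pool per condition limits every comparison.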

Other observations

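Stress genes of the endoplasmic reticulum and of the integrated stress response moved in both directions. Of 22 tested members 5 rose and 10 fell, with a median change of -0.32, or 2 and 5 without the Western-diet pair of 24 weeks. Atf3, a stress-induced transcription factor, read 19.3, 15.7, 6.61 and 13.04 in CCl4 livers, against 0.976, 1.24, 2.56 and 3.49 in oil livers, and rose by 2.25 ± 0.35 (limma adjusted p = 0.00478). Fgf21, a hormone that the liver secretes under stress, read 20.4, 12.4, 2.65 and 10.7 in CCl4 livers, against 2.35, 0.640, 2.31 and 0.816 in oil livers, and rose by 2.13 ± 0.43. The chaperone gene Sdf2l1 fell by 1.25 ± 0.24 and Asns, which makes asparagine, by 1.16 ± 0.25. The members that fell thus included chaperones, and those that rose included a factor and a hormone.

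Of 25 acute phase genes 6 rose and 8 fell, or 3 and 2 without the normal-diet pair of 12 weeks, 5 and 5 without either pair of 24 weeks, 10 and 5 under quantile normalization and 9 and 4 under total-read scaling. The median change was -0.04 under the deposited scaling, 0.17 under quantile normalization and 0.16 under total-read scaling. The metal-binding metallothionein Mt2 read 27.4, 57.5, 58.6 and 48.6 in CCl4 livers, against 5.32, 12.6, 10.7 and 30.1 in oil livers, and rose by 1.82 ± 0.25. The fibrinogen chains Fgb and Fgg fell by 0.92 ± 0.17 and 0.91 ± 0.17. Of 29 growth factor genes 15 rose and 5 fell, or 7 and 2 without either pair of 24 weeks and 8 and 2 without the normal-diet pair of 12 weeks. Egfr, the receptor of epidermal growth factor, read 261, 121, 199 and 148 in CCl4 livers, against 478, 337, 381 and 354 in oil livers, and fell by 1.13 ± 0.12 with groups apart. Axl, a receptor of macrophages and stellate cells, rose by 1.40 ± 0.12. Of 19 endothelial markers 7 rose and 0 fell, and Cd34 rose by 1.35 ± 0.17. H19, a noncoding RNA of fetal liver, read 1.79, 12.6, 139 and 18.04 in CCl4 livers, against 0.266, 0.229, 2.09 and 0.334 in oil livers, and rose by 3.48 ± 0.57, with groups that overlapped.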
